A study of Mus musculus with 9 samples.

Results

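The genes described here build the elastic fibre, the part of the extracellular matrix that lets lung and vessel walls stretch and recoil. They are 9 listed genes of the 21883 protein-coding genes in the table used: Fbn1 and Fbn2 (fibrillins), Eln (elastin), Fbln1, Fbln2 and Fbln5 (fibulins), Ltbp1 and Ltbp2 (latent TGF-beta binding proteins) and Lox (lysyl oxidase). The rule for the list names the genes by their part in the fibre and uses no measured value, though the list was drawn up with earlier results of these data known. Chromatin was profiled with ATAC-seq, an assay that uses a transposase to tag accessible DNA, in endothelial cells sorted by FACS from the lungs of mice. Infant, young adult and mature adult mice gave 3 libraries each. The labels name no strain, genotype, treatment, sorting marker or age in days, and leave it unsaid if libraries of the same age are different animals. Each p-value below therefore reflects the spread among libraries alone. Each library is a list of peaks, the stretches called accessible, given as positions without height or read number. A peak centred in a gene body was given to that gene, and any other peak to the closest gene end, up to 100 kb away. In sorted bulk cells, a site open in fewer cells and a site less open in each cell cannot be told apart, and the lack of a peak does not show that a site was closed.

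Elastic fibres form on a scaffold of microfibrils. Fibrillins assemble into the microfibrils, elastin is deposited on them as tropoelastin, fibulins bring the parts together, and lysyl oxidase cross-links elastin into an insoluble polymer. The latent TGF-beta binding proteins are relatives of the fibrillins that lie in the same matrix, and Ltbp1 ties latent TGF-beta to it. In the lung most elastin is laid down while the alveoli form after birth, and smooth muscle cells, myofibroblasts and endothelial cells contribute to the elastic fibres of vessels and airspaces.

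The lists ran from 59793 peaks (mature adult 1) to 94646 peaks (infant 1), and sequencing depth is unknown. Endothelial markers (Pecam1, Cdh5, Kdr, Erg, Tek, Tie1, Emcn and Sox17) all had a peak in every library, and their summed peak numbers were 180 to 191 in infant, 156 to 173 in young adult and 142 to 167 in mature adult libraries. The 12 fibroblast and mural markers summed to 90 to 98, 38 to 44 and 36 to 40 peaks. Of these markers 9 had a peak in every library and Lum was at 0 everywhere. By the test described below, 8 of the 11 tested were lower in young adults than in infants, beside 9.27% of all tested genes. In mature adults 5 were lower, beside 13.8%, and Myh11 was higher, beside 1.45%. The sums were 35 to 45, 18 to 27 and 19 to 21 for 7 epithelial markers (Sftpc at 0), and 13 to 15, 6 to 9 and 4 to 5 for 3 mesothelial markers (Msln at 0). For 6 leukocyte markers they were 9 to 10, 7 to 13 and 7 to 8, with Cd68 and Itgam at 0 in every library and Cd3e at 0 in the adult ones. For 4 lymphatic markers they were 22 to 24, 18 in each young adult library and 17 to 19, with Pdpn at 0. The fibroblast and mural, mesothelial and epithelial sums therefore moved with age in the direction of the elastic fibre genes below. Their median scaled log2 changes of peak number in mature adults were -0.62, -1.24 and -0.46, and their part in those results was not tested. Endothelial, lymphatic and leukocyte markers had medians of 0.27, 0.40 and 0.21 (8, 3 and 2 genes tested), beside 0.14 for all tested genes. Of the 8 endothelial markers 0 passed in either direction at either adult age. Young adult 3 and mature adult 1 stood apart from their replicates, with a median peak width of 396 and 406 bp against 433 to 462 bp in the other libraries.

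Peaks at the elastic fibre genes were far fewer in adult than in infant libraries. Summed over the 9 genes there were 144, 132 and 127 peaks in infant libraries 1 to 3. The young adult libraries had 67, 75 and 60 and the mature adult libraries 50, 66 and 58. These sums were 0.143 to 0.152% of all peaks of an infant library, 0.0888 to 0.110% of a young adult and 0.0836 to 0.103% of a mature adult library, so the groups of infant and adult libraries did not overlap after allowing for the shorter adult lists. The same held for the DNA covered, 66.5 to 80.3 kb in infant libraries, 28.4 to 39.9 kb in young adult and 25.3 to 31.6 kb in mature adult libraries. For each of the 9 genes the infant library with the fewest peaks had more than the adult library with the most, a pattern found in 24.8% of the 14448 genes tested. For covered length it held for 9 genes as well, but 54.0% of tested genes showed it.

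**Figure D1:**
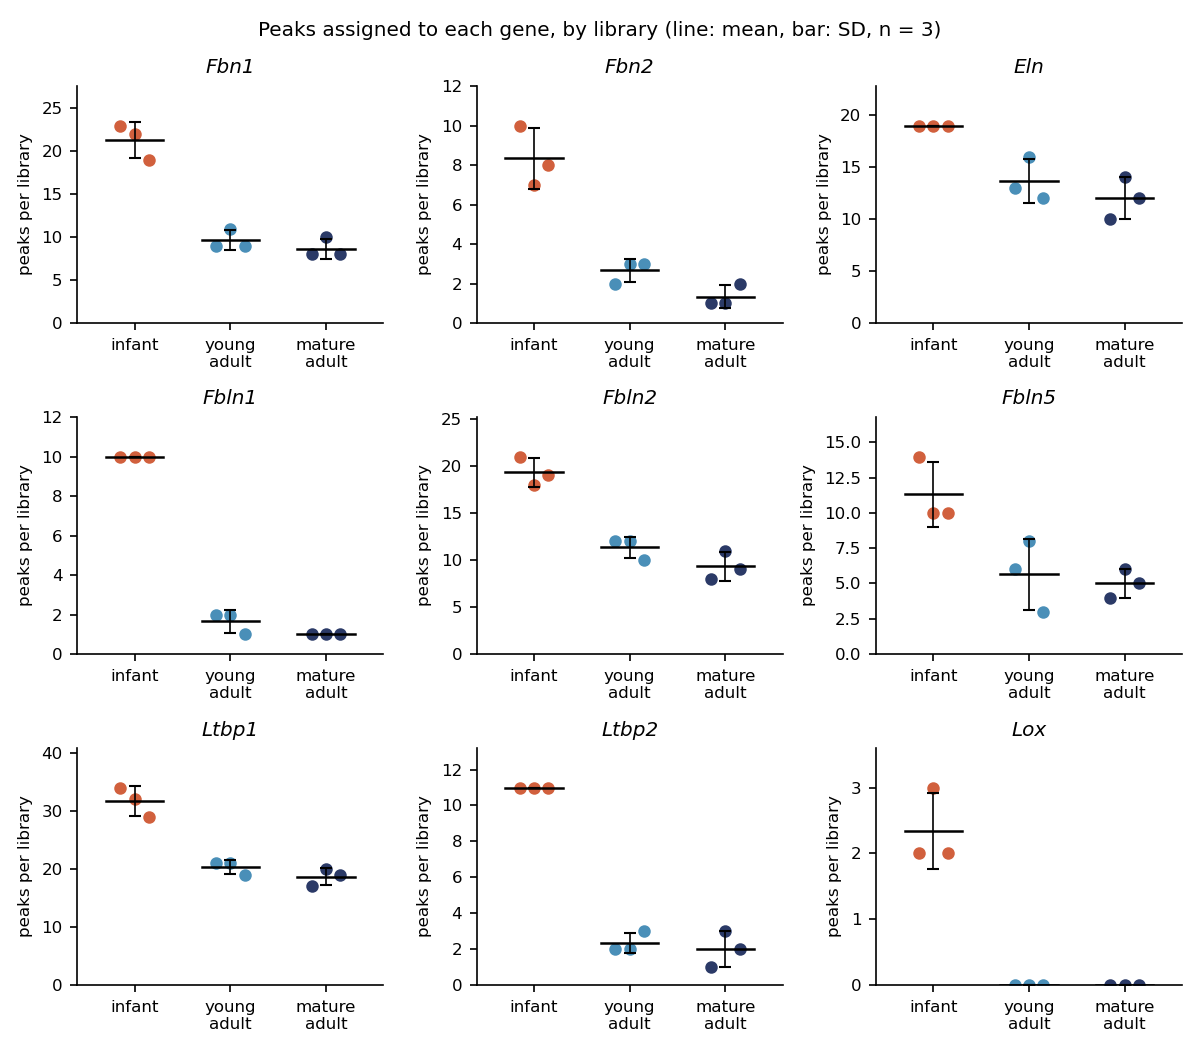
Peaks assigned to each elastic fibre gene (vertical axis, peaks per library) by age, 1 point per library, with the mean as a line and the SD as a bar (n = 3). In each of the 9 panels the 3 infant points lie above all 6 adult points, and Lox is at 0 in every adult library.

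A gene was called changed when its log2(number of peaks + 0.5) passed limma's test (adjusted p under 0.05) both on values scaled to the library's total and on unscaled values, in the same direction. The filter of a mean of at least 1 peak per library left 8 of the 9 genes, without Lox. By this rule Fbn1, Fbn2, Fbln1, Fbln2, Ltbp1 and Ltbp2 were lower in young adult than in infant libraries, while 9.27% of all tested genes were lower and 1.14% higher. The same 6 genes were lower in mature adult than in infant libraries, against 13.8% lower and 1.45% higher among all tested genes. None of the 8 was higher, with 0 also at an unadjusted p under 0.05 on both scales. Eln and Fbln5 did not pass. The median scaled change of the 8 genes was -0.65 in young adults and -0.66 in mature adults on the log2 scale, beside 0.13 and 0.14 for all tested genes. On unscaled values the medians were -1.06 and -1.18, beside -0.25 and -0.31. For covered length, tested as log2(bp + 150), Fbn1, Fbn2, Fbln1, Fbln5 and Ltbp2 were lower in young adults, where 12.5% of all tested genes were lower and 0.948% higher. Fbln2 joined them in mature adults, where 19.0% were lower and 1.21% higher. From young to mature adults 0 of the 8 genes passed in covered length by limma (2 lower at an unadjusted p under 0.05), beside 0.533% lower and 0.00692% higher. When every list was cut to its widest peaks, with an equal count per list, Fbn2, Fbln1 and Ltbp2 alone of the 8 passed in peak number at either adult age. At this setting 4.21% of 13629 tested genes were lower in young adults and 7.77% in mature adults, and calls were more often higher than lower, 818 against 574 and 1208 against 1059, where the full lists gave 164 against 1339 and 209 against 1998. Between mature and young adult libraries limma called 0 of the 8 genes (1 lower at an unadjusted p under 0.05 on both scales), beside 0.644% of all genes called lower, and no gene of the 9 had more peaks in all 3 young adult libraries than in all 3 mature adult ones, a pattern of 4.39% of tested genes. In covered length Fbln1 alone of the 9 showed it (564, 928 and 438 bp against 344, 403 and 388 bp), beside 12.0% of tested genes. Fbln1 passed in peak number (log2 -0.67, limma adjusted p = 0.00389) when young adult 3 was left out, beside 2.05% of tested genes called lower. That fit set 2 peaks in young adults 1 and 2 against 1 in each mature adult library. Both peaks of young adult 1 lay in the same merged region, so the difference rests on very few peaks.

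**Figure D2:**
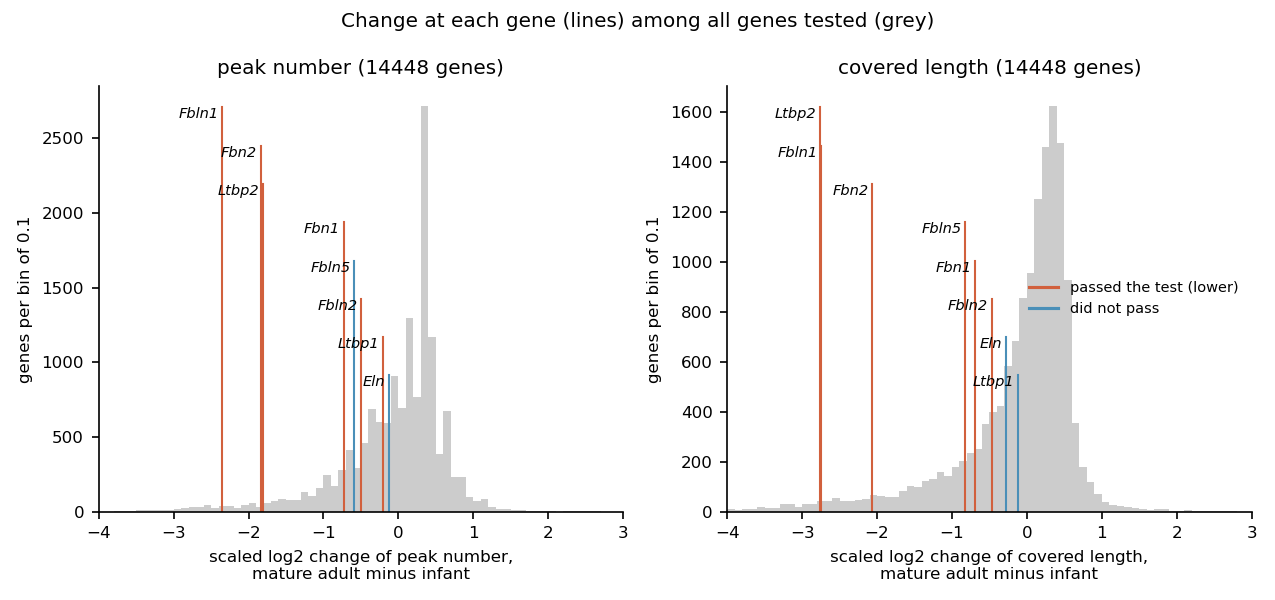
Scaled log2 change from infant to mature adult libraries for all 14448 tested genes (grey histogram, genes per bin of 0.1) with a line for each of 8 elastic fibre genes, for peak number (left) and covered length (right). Orange lines are genes that passed the test and blue lines genes that did not; line heights only separate the names. Fbln1, Fbn2 and Ltbp2 lie in the left tail of both panels, and Eln and Ltbp1 lie nearest to 0.

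At their gene ends the 9 genes split into those that kept a peak and those that lost it. In infants every one of the 9 had a peak within 250 bp of a gene end, in all 3 libraries. In adults this peak was absent from all 6 libraries at Fbn2, Fbln1, Ltbp2 and Lox. Such a loss was found in 4.28% of the 11914 genes that had a peak at a gene end in all 3 infant libraries. Eln, Fbln5 and Ltbp1 had the peak in all 9 libraries, and Fbn1 and Fbln2 had it in all but young adult 3, whereas 86.6% of those 11914 genes had it in all 9. The annotated start of Fbln2 (chr6:91212764) lies farther inside the gene than this end (chr6:91212460). A peak covered that start in all 9 libraries, 159 bp wide in young adult 3. Within 1 kb of a gene end the count of losses was 3, because Ltbp2 had a small peak farther out. It was also 3 with peaks of at least 300 bp alone and with equal numbers of the widest peaks. The share of all genes with such a loss was not counted for the 1 kb window or these settings. The infant peak at this end of Fbln1 was 355, 358 and 263 bp wide, against 2134, 1943 and 1835 bp at Fbn2.

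Promoter windows from RefSeq (GRCm38.p6, the same assembly as mm10) show both kinds of start. Of the 9 genes, 6 matched this table by symbol, and Eln, Fbn2 and Lox are not in it. Each window runs from 250 bases before the start to 50 after it, and is written 5′ to 3′ on the gene's own strand. Shown first are Fbln1 (chr15:85205699-85205998, plus strand) and Ltbp2 (chr12:84876442-84876741, minus strand), whose start had a peak in infants only. Then come Fbln5 (chr12:101819070-101819369, minus strand) and the upstream start of Ltbp1 (chr17:75005279-75005578, plus strand), covered by a peak in all 9 libraries. Last is the second, internal start of Ltbp1 (chr17:75178531-75178830, plus strand), whose window was reached by a peak in the 3 infant libraries and in no adult library. Capitals mark matches to the motifs described after the sequences.
Fbln1: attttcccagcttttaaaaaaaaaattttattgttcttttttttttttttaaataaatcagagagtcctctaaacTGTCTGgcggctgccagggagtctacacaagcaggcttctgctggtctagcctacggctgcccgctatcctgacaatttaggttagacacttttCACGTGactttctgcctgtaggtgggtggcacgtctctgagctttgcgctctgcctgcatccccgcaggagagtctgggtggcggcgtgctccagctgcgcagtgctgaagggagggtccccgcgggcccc
Ltbp2: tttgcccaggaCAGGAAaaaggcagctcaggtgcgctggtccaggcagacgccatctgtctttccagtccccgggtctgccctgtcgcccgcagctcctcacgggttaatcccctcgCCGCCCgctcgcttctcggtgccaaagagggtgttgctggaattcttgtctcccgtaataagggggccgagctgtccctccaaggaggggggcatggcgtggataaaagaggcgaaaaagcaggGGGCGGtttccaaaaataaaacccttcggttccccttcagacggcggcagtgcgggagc
Fbln5: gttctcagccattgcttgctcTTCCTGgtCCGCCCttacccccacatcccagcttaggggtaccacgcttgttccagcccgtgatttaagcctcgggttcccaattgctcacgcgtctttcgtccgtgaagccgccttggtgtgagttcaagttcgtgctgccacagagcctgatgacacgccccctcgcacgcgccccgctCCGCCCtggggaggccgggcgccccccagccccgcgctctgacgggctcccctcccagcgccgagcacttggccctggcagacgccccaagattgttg
Ltbp1 upstream: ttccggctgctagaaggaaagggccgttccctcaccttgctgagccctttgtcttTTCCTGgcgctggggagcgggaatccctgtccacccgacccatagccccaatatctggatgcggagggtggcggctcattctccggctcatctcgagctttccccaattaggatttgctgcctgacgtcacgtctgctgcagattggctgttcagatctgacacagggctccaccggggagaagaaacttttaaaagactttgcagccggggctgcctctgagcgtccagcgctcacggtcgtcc
Ltbp1 internal: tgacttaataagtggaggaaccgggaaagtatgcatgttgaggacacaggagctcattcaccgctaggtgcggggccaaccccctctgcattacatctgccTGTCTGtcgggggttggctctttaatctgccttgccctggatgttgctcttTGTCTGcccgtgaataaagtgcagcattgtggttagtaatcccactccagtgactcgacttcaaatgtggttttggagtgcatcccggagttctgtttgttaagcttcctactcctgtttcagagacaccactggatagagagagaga

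On both strands, 7 short motifs were searched, and each is given with the share of all 32851 promoter windows of this length that hold it. The TATA box, spelled TATAAA, was in 13.6% of windows. The Sp1 element, spelled GGGCGG, was in 35.7%, and the AP-1 motif, spelled TGANTCA, in 7.81%. The ETS core was spelled CAGGAA and found in 30.6%, and the SMAD element was spelled CAGACA and found in 21.0%. The TEAD motif GGAATG was in 14.7% and the E-box CACGTG in 7.15%. The Fbln1 window shown held 1 SMAD element and 1 E-box. The Ltbp2 and Fbln5 windows shown each held 2 Sp1 elements and 1 ETS core. The upstream Ltbp1 window held 1 ETS core and the internal window 2 SMAD elements. Of the windows not shown, Fbn1 held 1 Sp1 element and Fbln2 held 2. A second Fbln1 window (chr15:85205758-85206057), which overlaps the one shown and was also reached by a peak in infants only, held 2 Sp1 elements, 1 SMAD element and 1 E-box. A second Fbln5 window (chr12:101818435-101818734), reached by a peak in 6 of 9 libraries, held 1 ETS core and 1 SMAD element. No match overlapped another. GC content was 51.7% and 64.0% in the first and second Fbln1 windows and 61.0% at Ltbp2. It was 65.7% in the first Fbln5 window, 58.7% at the upstream Ltbp1 start and 60.3% at Fbn1 and at Fbln2. Lost and kept starts therefore overlapped. The second Fbln5 window, reached in 6 of 9 libraries, had 48.7%, and the median over all windows was 52.7%. The internal Ltbp1 window had 50.0% GC and 7 CpG dinucleotides, the upstream window 17. A match is a run of letters, not a bound site, and the windows of lost and kept starts are too few to compare.

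**Figure D3:**
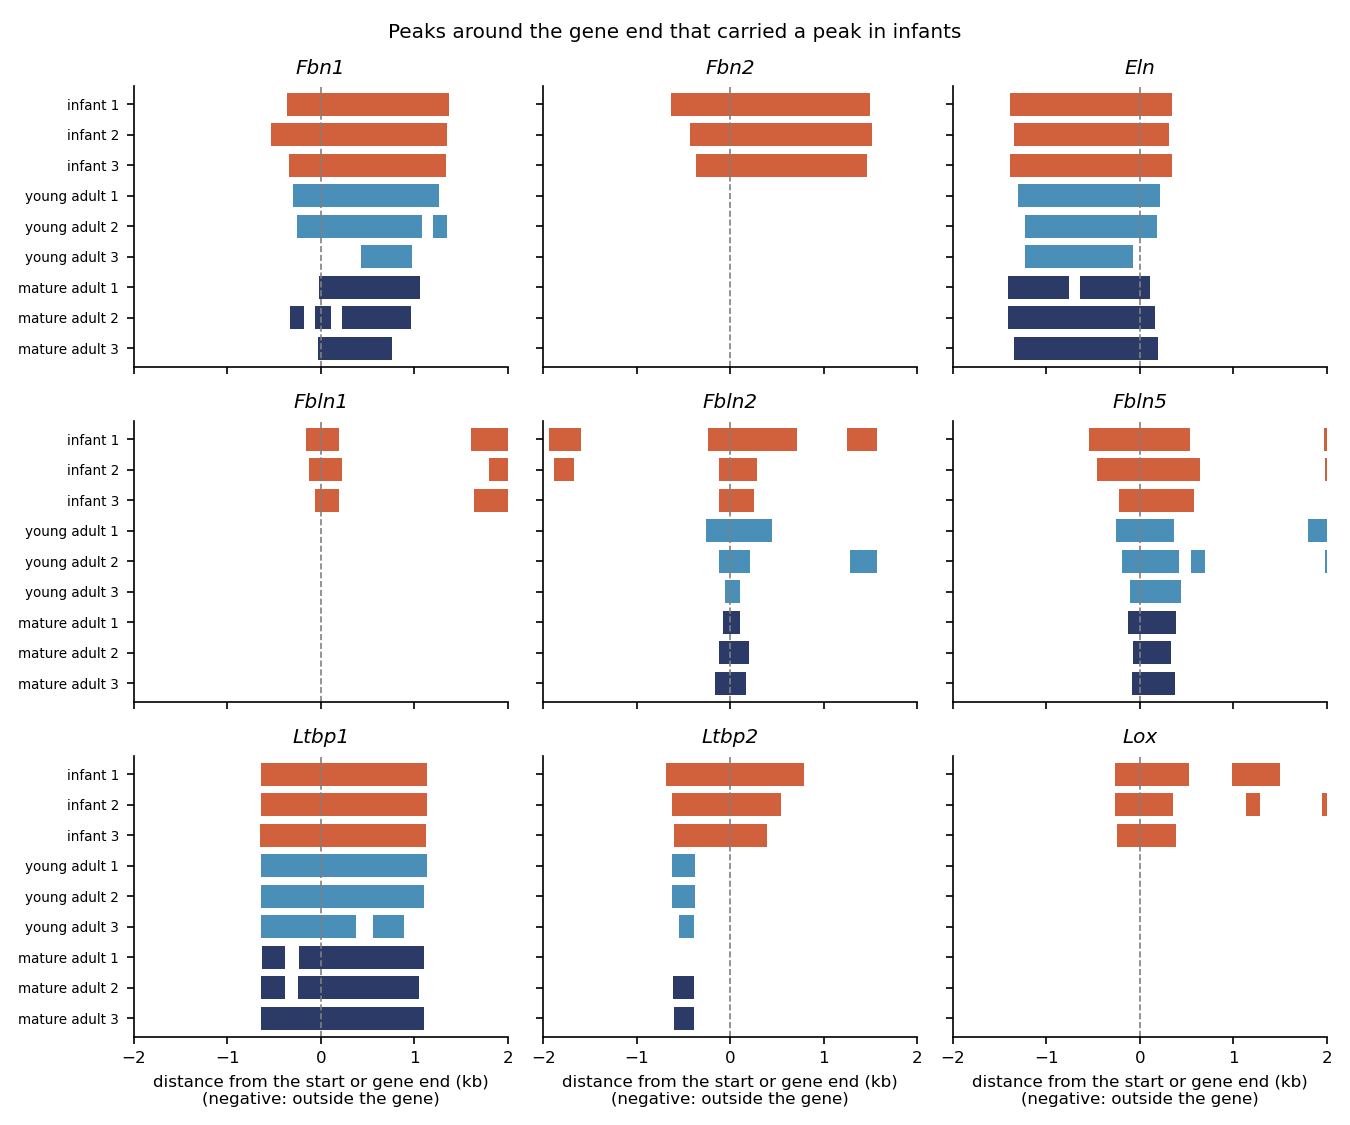
Peaks within 2 kb of the start (Fbn1, Fbln1, Fbln2, Fbln5, Ltbp1, Ltbp2) or of the gene end that had a peak in infants (Fbn2, Eln, Lox), 1 row per library, with negative distances outside the gene. Fbn2, Fbln1 and Lox have no adult bar, Ltbp2 keeps a narrow bar outside the gene in 5 of 6 adult libraries, and Eln and Ltbp1 keep wide bars at all ages.

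Of the fibrillins, Fbn1 (chr2:125300594-125506485, minus strand) encodes the main fibrillin of adult microfibrils, and Fbn2 (chr18:58008623-58210572) one known best from developing tissue. Fbn1 had 23, 22 and 19 peaks in infants, 9, 11 and 9 in young adults and 8, 10 and 8 in mature adults. No adult library came near the lowest infant library, and young and mature adults overlapped. The scaled change was -0.69 ± 0.11 (log2, SE) in young adults (limma adjusted p = 0.00182 scaled and 0.00186 unscaled) and -0.73 ± 0.11 in mature adults (limma adjusted p = 0.00107 and 0.000755). Covered length at Fbn1 fell from 11.9 ± 0.916 kb (SD, n = 3) in infants to 5.83 ± 1.28 kb and 4.72 ± 0.565 kb, 2.51-fold between infant and mature adult. The peak count at Fbn1 did not pass when peaks under 300 bp were left out (limma adjusted p = 0.131 and 0.0810).

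The start of Fbn1 stayed accessible but its peak was narrower in adults. It was 1728, 1884 and 1677 bp wide in infants, 1563 and 1338 bp in young adults 1 and 2, and 1079 and 789 bp in mature adults 1 and 3. In mature adult 2 it was split into peaks of 734, 172 and 150 bp, of which the 172 bp peak lay over the start, and they covered 1056 bp together. In young adult 3 the peak there, of 552 bp, began inside the gene. Of 28 regions at Fbn1, obtained by merging overlapping peaks of all libraries, 6 had a peak in every library and 7, all inside the gene, had one in all 3 infant libraries and no adult library. The widest of these infant-only regions was chr2:125318311-125319028, with a mean infant peak of 635 bp, and the next was chr2:125404626-125405187, at 527 bp. A region inside Fbn1 at chr2:125355209-125356880 was kept at all ages, with peaks covering 1635 bp in infants, 1188 bp in young adults and 912 bp in mature adults on average. Another at chr2:125463913-125464954 differed little, with 967, 857 and 876 bp.

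Fbn2 went further than Fbn1. It had 10, 7 and 8 peaks in infants, 2, 3 and 3 in young adults and 1, 1 and 2 in mature adults. Each adult library had fewer peaks than any infant library, and the young and mature adults overlapped at 2 peaks. The scaled change was -1.10 ± 0.24 in young adults (limma adjusted p = 0.0102 on either scale) and -1.84 ± 0.24 in mature adults (limma adjusted p = 0.000558 scaled and 0.00126 unscaled). Covered length was 5.82 ± 1.11 kb, 1.34 ± 0.275 kb and 0.818 ± 0.264 kb, 7.12-fold between infant and mature adult. The young adult call on peak number was lost when only peaks inside the gene were counted (limma adjusted p = 0.0998).

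At the gene end with the higher coordinate, Fbn2 had a peak of 2134, 1943 and 1835 bp in the infant libraries, wider than at least 99.7% of all peaks of those libraries, and none in any adult library. Inside the gene body, mature adult 1 and 2 had no peak at all and mature adult 3 had 1. The peak that all 9 libraries shared lay outside the gene, at chr18:57989362-57990777, 18554 bp below its lower end, with 1055, 922 and 757 bp covered in infant, young adult and mature adult libraries on average. A region deep inside the gene, chr18:58124843-58125625, was present in infants only (782, 694 and 737 bp).

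Eln (chr5:134702595-134747368), which encodes the elastic protein itself, changed least together with Ltbp1. It had 19 peaks in each infant library, 13, 16 and 12 in young adults and 10, 14 and 12 in mature adults. The infant libraries were above all adults, but after scaling the change was -0.06 ± 0.12 in young adults and -0.12 ± 0.12 in mature adults, and neither passed (limma adjusted p = 0.756 and 0.456; unscaled 0.0671 and 0.0160). Covered length was 11.3 ± 1.08 kb, 7.16 ± 1.51 kb and 5.99 ± 0.749 kb. Its scaled change in mature adults lay at the threshold (-0.28 ± 0.11, limma adjusted p = 0.0510 scaled and 0.00230 unscaled), and passed, for example, when young adult 3 was left out (limma adjusted p = 0.0203).

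Most of the peaks given to Eln lay outside it, 13, 13 and 14 of 19 in infants, beyond the higher-coordinate end. The peak at that end measured 1725, 1656 and 1732 bp in infants, 1517, 1408 and 1154 bp in young adults and 741, 1573 and 1539 bp in mature adults, where in mature adult 1 it was split into a pair of peaks. Of 21 regions, 9 were present in every library, a share of 42.9% and the highest of the 9 genes, and 2 were infant-only, chr5:134772537-134772909 and chr5:134779117-134779657, both outside the gene. Regions inside the gene body at chr5:134709187-134709841 and chr5:134740479-134741318 had a peak in all infants, in young adult 2 and in no mature adult. A region at chr5:134734058-134734587 inside Eln was as wide in mature adults as in infants (496 and 485 bp), whereas at chr5:134703643-134704851, near the lower end, the covered length was 951 bp in infants and 511 bp in mature adults.

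**Figure D4:**
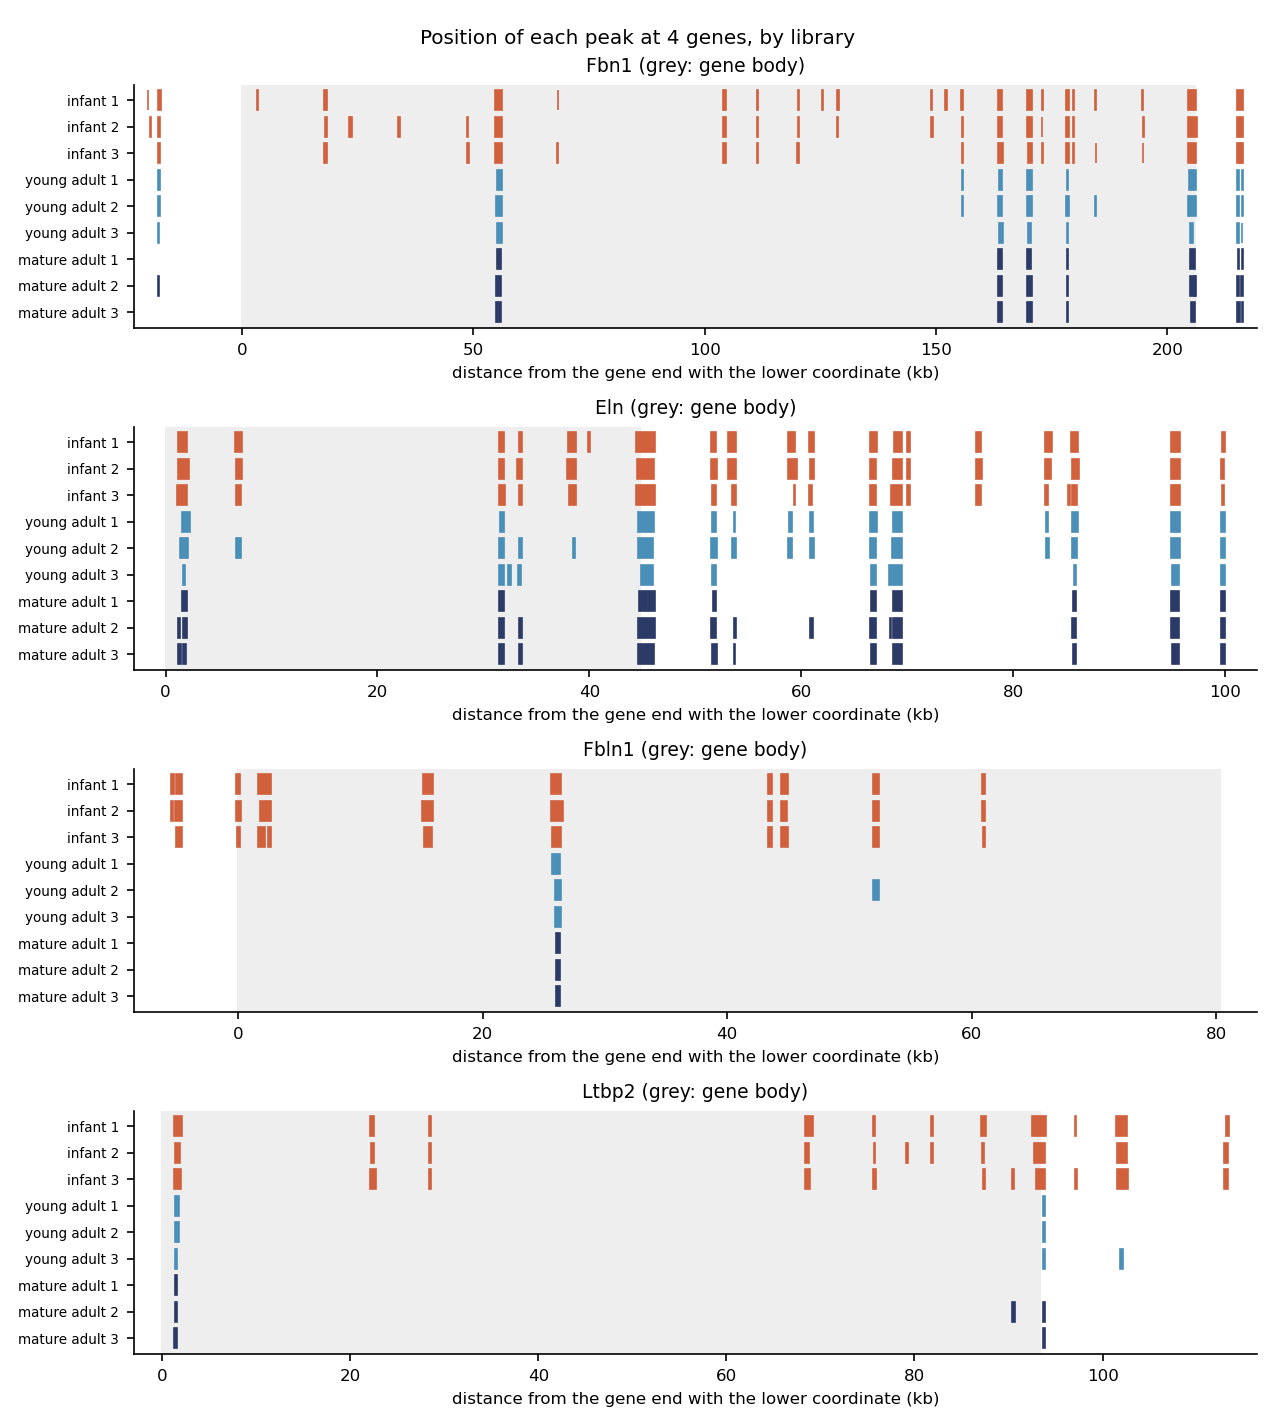
Position of every peak given to Fbn1, Eln, Fbln1 and Ltbp2 (horizontal axis, kb from the gene end with the lower coordinate; gene body in grey), 1 row per library. Infant rows of Fbn1 carry peaks along the gene that adult rows lack, the rows of Eln are alike in most positions, adult rows of Fbln1 are left with 1 shared peak, and adult rows of Ltbp2 mostly with peaks near its ends.

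The fibulins bind both elastin and microfibrils, and Fbln5 in particular is needed for elastic fibres to assemble. Fbln1 (chr15:85205949-85286294, plus strand) had 10 peaks in each infant library, 2, 2 and 1 in young adults and 1 in each mature adult library. There was no overlap, and the 3 infant libraries were identical in number. The scaled change was -1.94 ± 0.19 in young adults (limma adjusted p = 0.000732 scaled and 0.000359 unscaled) and -2.35 ± 0.19 in mature adults (limma adjusted p = 0.000134 and 0.000107). Covered length was 5.03 ± 0.575 kb, 0.643 ± 0.254 kb and 0.378 ± 0.0307 kb, 13.3-fold between infant and mature adult and the largest ratio among the 8 tested genes. Of its 10 regions, 7 were infant-only, the highest share of the 9 genes. They included the start (355, 358 and 263 bp in infants), chr15:85207554-85208681 just inside the gene (mean 949 bp) and chr15:85221024-85221929 (mean 762 bp). The single region kept in all 9 libraries, chr15:85231535-85232568 inside the gene, covered 883 bp in infants, 487 bp in young adults and 378 bp in mature adults.

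Fbln2 (chr6:91212460-91272540, plus strand) had 21, 18 and 19 peaks in infants, 12, 12 and 10 in young adults and 8, 11 and 9 in mature adults. Infants lay above all adults, and the adult ages overlapped. The scaled change was -0.34 ± 0.11 in young adults (limma adjusted p = 0.0472 scaled and 0.0105 unscaled) and -0.49 ± 0.11 in mature adults (limma adjusted p = 0.00816 and 0.00218). The young adult call did not pass under 15 of 21 other settings, among them the replicate block (limma adjusted p = 0.0763), and its p was 0.132 without infant 1. Covered length, 8.53 ± 1.18 kb, 4.93 ± 0.934 kb and 3.99 ± 0.978 kb, passed in mature adults (limma adjusted p = 0.0204 scaled) and not in young adults (0.123), and the mature adult call was lost without infant 1 (limma adjusted p = 0.0720), infant 2 (0.0536), mature adult 1 (0.0662) or mature adult 3 (0.0600). A peak covered its start in all 9 libraries, 960, 415 and 372 bp wide in infants, 712, 339 and 159 bp in young adults and 177, 323 and 332 bp in mature adults, so that the mature adult peaks were narrower than the infant ones and the young adults overlapped with both. Of 22 regions, 7 were in every library and 3 were infant-only, among them chr6:91209778-91210366, centred 2388 bp upstream of the gene.

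Fbln5 (chr12:101746565-101819119, minus strand) had 14, 10 and 10 peaks in infants, 6, 8 and 3 in young adults and 4, 6 and 5 in mature adults. The infants lay above all adults, but the spread was wide and the number of peaks did not pass (scaled change -0.62 ± 0.31 and -0.59 ± 0.31, limma adjusted p = 0.176 and 0.167). The mature adult difference passed when young adult 3, with 3 peaks, was left out (limma adjusted p = 0.0321). With peaks of at least 300 bp the number passed in young and mature adults (limma adjusted p = 0.0100 and 0.00675). It also passed at both ages with rows as deposited (limma adjusted p = 0.0484 and 0.0243). Covered length did pass, at 6.28 ± 0.813 kb in infants against 2.61 ± 0.708 kb in young adults (limma adjusted p = 0.00517 scaled and 0.00248 unscaled) and 2.24 ± 0.254 kb in mature adults (limma adjusted p = 0.00204 and 0.000752). The peak over its upstream start narrowed without overlap between infants and adults, from 1087, 1098 and 809 bp to 627, 605 and 539 bp in young adults and 508, 408 and 459 bp in mature adults. Infant-only regions numbered 3 of 14, all inside the gene, at chr12:101768866-101769262, chr12:101777590-101778300 and chr12:101798212-101798726.

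Ltbp1 (chr17:75005480-75392512, plus strand) is the longest of the 9 genes, at 387 kb, and had the most peaks. There were 34, 32 and 29 in infants, 21, 21 and 19 in young adults and 17, 20 and 19 in mature adults. The infant libraries did not overlap with the adults, and the adult ages did overlap. After scaling the change was small, -0.21 ± 0.06 at either adult age (limma adjusted p = 0.0300 scaled and 0.00360 unscaled in young adults, 0.0250 and 0.00123 in mature adults). These calls lay near the threshold. Without infant 1 they were lost (limma adjusted p = 0.0945 in young and 0.0814 in mature adults), as they were without infant 2 (0.0936 and 0.0782). The young adult call was also lost without young adult 3 (0.0781), and the mature adult call without mature adult 1 (0.0686) or mature adult 3 (0.0554). In these fits the scaled change stayed between -0.17 and -0.22. With equal numbers of the widest peaks it was -0.03 in young and -0.10 in mature adults. It was -0.10 and -0.11 with rows as deposited, and -0.20 and -0.09 with peaks of at least 300 bp. None of these passed. Covered length, 17.5 ± 1.06 kb, 11.4 ± 1.25 kb and 10.4 ± 0.663 kb, did not pass on scaled values (limma adjusted p = 0.0842 and 0.0729).

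The upstream start of Ltbp1 had a wide peak at every age, of 1776, 1775 and 1775 bp in infants, 1775, 1739 and 1016 bp in young adults and 1331, 1295 and 1741 bp in mature adults. Young adult 1 was as wide as the infants, and the narrower peaks of young adult 3 and mature adults 1 and 2 went with a second peak beside them. The window of the internal start was reached by the infant-only region chr17:75178352-75178696, with a mean infant peak of 263 bp. Ltbp1 had 41 regions, of which 14 were in every library and 8 were infant-only. A kept region at chr17:75087339-75088571 covered 1147 bp in infants but 492 and 519 bp in young and mature adults. Another at chr17:75128281-75129009 was wider in adults, with 366 bp in infants, 595 bp in young adults and 544 bp in mature adults. Of the 163 regions at the 9 genes, 4 (2.45%) had an adult peak and no infant peak, against 13.9% of all regions given to a gene. Of these 4, 3 were at Ltbp1 and 1 at Eln, and none was in more than 3 of the 6 adult libraries.

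Ltbp2 (chr12:84783212-84876558, minus strand) encodes a relative that, unlike Ltbp1, does not bind latent TGF-beta and lies on microfibrils. It had 11 peaks in each infant library, 2, 2 and 3 in young adults and 1, 3 and 2 in mature adults. The infant libraries were identical in number and above every adult library. The scaled change was -1.65 ± 0.29 in young adults (limma adjusted p = 0.00303 scaled and 0.00577 unscaled) and -1.81 ± 0.29 in mature adults (limma adjusted p = 0.00166 and 0.00269). Covered length was 5.65 ± 0.757 kb, 0.701 ± 0.00902 kb and 0.478 ± 0.272 kb, 11.8-fold between infant and mature adult.

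Over the start of Ltbp2, infants had a peak of 1474, 1169 and 993 bp that reached both sides of it. In 5 of 6 adult libraries only a peak of 161 to 254 bp was left, whose near edge lay 374 to 389 bp upstream of the start, and mature adult 1 had none. Of its 13 regions, 6 were infant-only, among them chr12:84851559-84852446 (mean 594 bp) and chr12:84805349-84805950 (mean 425 bp). A wide infant region upstream, chr12:84884597-84885879 (mean 1153 bp), had 1 adult peak, in young adult 3. The only region kept in all 9 libraries lay near the other end of the gene, at chr12:84784532-84785312, and covered 680, 372 and 238 bp in infant, young adult and mature adult libraries.

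Lox (chr18:52516060-52529867) encodes the enzyme that oxidises lysines of elastin and collagen so that they cross-link. It had 2, 3 and 2 peaks in infants and 0 in all 6 adult libraries. Its peaks covered 1.30, 1.07 and 0.783 kb in infants. The widest, at the gene end with the higher coordinate, was 793, 620 and 633 bp (chr18:52529335-52530128). With a mean under 1 peak per library Lox stood outside the main test. No test or fold is given, because the adult value is 0 in every library.

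Over the 9 genes together there were 163 regions. Infant-only regions made up 40 of them (24.5%), against 9.46% of the 111761 regions given to any gene, and regions in all 6 adult and no infant library made up 0, against 0.716%. Regions in every library made up 42 (25.8%, against 34.6%). Of the 40 infant-only regions, 32 lay inside the genes (80.0%, against 58.8% of infant-only regions over all genes). Of all 163 regions 70.6% lay inside, against 64.7% over all genes. Within 1 kb of a gene end lay 3 of the 40, those at Fbn2, Fbln1 and Lox. This share was close to that over all genes, where 8.15% of infant-only regions did so. A further 11 regions were in all infants and in young adults only (6.75%, against 4.78%), of which 4 were at Eln. Infant-only regions were 26 of 112 (23.2%) with peaks of at least 300 bp alone and 16 of 112 (14.3%) with equal numbers of the widest peaks, and regions in all adult and no infant libraries were then 1 and 2. The shares over all genes were not counted at these settings, so these percentages cannot be set beside 9.46%.

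**Figure D5:**
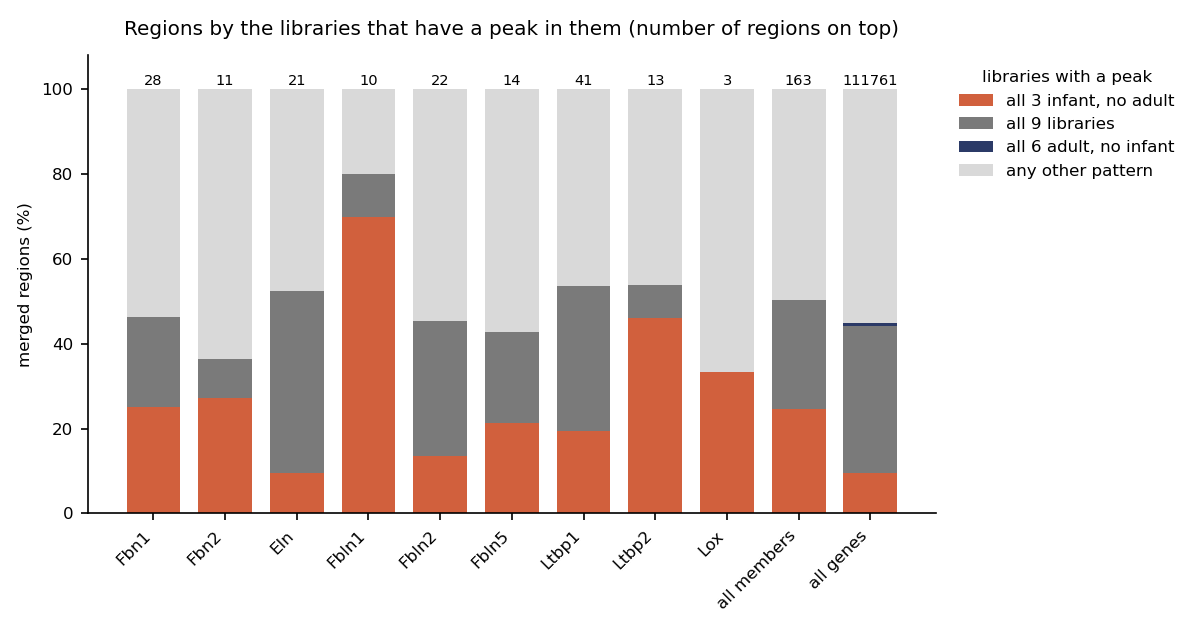
Percent of merged regions (vertical axis) at each elastic fibre gene, at all 9 and at all genes, by the libraries that have a peak in them, with the number of regions above each bar. The infant-only share is 70.0% at Fbln1 and 46.2% at Ltbp2, 24.5% over the 9 genes and 9.46% over all genes.

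Most of the peaks that stayed were narrower in mature adults, as over all genes. In the 42 regions kept in every library the median covered width was 797 bp in infants, 618 bp in young adults and 543 bp in mature adults, beside 755, 658 and 626 bp over all kept regions given to a gene. The width was lower in mature adults than in infants in 37 of the 42 (88.1%, against 80.0% of all kept regions), and Eln had 3 of the 5 exceptions and Ltbp1 the other 2. The median width of all peaks at the 9 genes did not follow age, with 469, 424 and 405 bp in infants, 441, 447 and 435 bp in young adults and 462, 392 and 448 bp in mature adults. At Ltbp2 it was 387, 287 and 474 bp in infants, 355, 351 and 207 bp in young adults and 194, 234 and 252 bp in mature adults, so the mature adults lay below the infants and the young adults overlapped with both. At Fbn1 it was 337, 321 and 385 bp in infants, 588, 486 and 517 bp in young adults and 427, 364.5 and 547.5 bp in mature adults. The infants lay below the young adults there, and the mature adults overlapped with both.

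Among 35 other genes of elastic fibres, 27 were tested. In peak number 3 (11.1%) were lower than in infants at each adult age and 0 were higher, a share near the 9.27% and 13.8% of all tested genes, with a median scaled change of -0.08 in young adults and -0.09 in mature adults. Their summed peak numbers were 246 to 266 in infants, 164 to 186 in young adults and 142 to 170 in mature adults. Loxl1, a lysyl oxidase that acts on elastin, had 8, 10 and 8 peaks in infants and 2 in each of the 6 adult libraries (scaled change -1.48 ± 0.10 and -1.38 ± 0.10, limma adjusted p = 0.000146 and 0.000134). Adamts17, a secreted protease linked to fibrillin microfibrils, had 23, 22 and 21 peaks in infants, 9, 11 and 11 in young adults and 6, 7 and 9 in mature adults (limma adjusted p = 0.00690 and 0.000520). Mmrn1, a multimerin of the EMILIN family, was lower in young adults, with 8, 8 and 6 peaks against 2, 3 and 3 (limma adjusted p = 0.0202). Bgn, the small proteoglycan biglycan, was lower in mature adults, with 5, 5 and 4 peaks against 2 in each (limma adjusted p = 0.0174), but with peaks of at least 300 bp alone its scaled log2 change turned to 0.0083 (limma adjusted p = 0.932). In covered length 4 of the 27 (14.8%) were lower in young adults and 6 (22.2%) in mature adults, with 0 higher, beside 12.5% and 19.0% of all tested genes. Loxl1, Adamts17, Bgn and Hmcn2, a hemicentin, were lower at both ages, and Efemp1, a fibulin, and Mmp9, a gelatinase that also cleaves elastin, in mature adults. Hmcn2, Efemp1 and Mmp9 are named for these values. Hmcn2 had 3672, 2694 and 2724 bp covered in infants, 2002, 1331 and 940 bp in young adults and 1183, 1437 and 1141 bp in mature adults (limma adjusted p = 0.0459 and 0.0360, scaled).

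By role, in peak number, 1 of 3 tested lysyl oxidases (Loxl1) was lower at each adult age. Of 13 tested genes of the microfibril and elastin interface, 2 were lower in young adults (Adamts17 and Mmrn1). In mature adults 2 were lower as well (Adamts17 and Bgn). This share of 15.4% was near the 9.27% and 13.8% of all tested genes. Among 4 fibulins and hemicentins, the other 2 latent TGF-beta binding proteins (Ltbp3 and Ltbp4), 4 processing enzymes and 1 elastin-degrading enzyme, limma called 0 in peak number in either direction (at an unadjusted p under 0.05, 1 fibulin or hemicentin was lower at either adult age and 1 processing enzyme in mature adults). Fbln7, Loxl2, Mfap4, Emilin3 and Dcn had at most 2 peaks in an infant library and none in any adult library. Loxl2 had none in infant 3 either, and Dcn none in infant 2. These genes had too few peaks to be tested, and the share of all genes with this pattern was not counted. Mfap2 and Mmp12 had no peak in any library.

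Genes whose scaled profile of peak numbers over the 9 libraries lay closest to a member's were named by the root mean square difference on the log2 scale among 3801 genes with a mean of at least 5 peaks. For Eln they were Slc38a2 (0.0764) and Zcchc14 (0.0781), and for Fbln2 Nfia (0.0754) and Ctdp1 (0.0830). For Fbln5 they were Ppargc1b (0.150) and Chst12 (0.154), and for Ltbp1 Irf8 (0.0529) and Tac4 (0.0691). The nearest to Ltbp2 were farther away, Susd4 (0.289) and Lrig1 (0.298). Susd4 had 12, 10 and 11 peaks in infants, 3, 3 and 4 in young adults and 2, 3 and 2 in mature adults.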

How the data were processed

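Per the file headers, the deposited lists, 1 per library, hold peak positions (chromosome, start, end) and no score. Per the submitters' processing notes the build was mm10 and the tools were cutadapt, Bowtie2 and Picard; no versions are listed. Which program called peaks, at what threshold and with what shift is not given in the sources used. Whether starts count from 0 or 1 is not stated, so positions may be off by 1 bp. Between 31.0% and 38.9% of intervals were repeated in a list, and each was counted once. Genes came from RefSeq (GRCm38.p6). Peak number was tested as log2(number + 0.5) and covered length as log2(bp + 150) with limma 3.58.1 in R 4.3.3 (trend on), fitting the 9 libraries together, for the 14448 genes that averaged at least 1 peak. Benjamini-Hochberg adjustment ran over all of them, and a call needed an adjusted p under 0.05 on scaled and on unscaled values. Adding 0.5 understates changes of genes with few peaks. Peaks sharing 1 bp or more were merged, and these regions were described without a test. All members were to be named, and other genes of the pathway where they passed on peak number. Of each member averaging at least 5 peaks, the 2 genes nearest in profile were to be named; those for Fbn1 are not reported here. The members and lists were chosen with earlier results of these data known. The test was checked on simulated data. Python 3.11.15 was used for the rest.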

Additional observations from a re-analysis of the deposited data

How the results depend on the processing

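The fall from infant to mature adult libraries at Fbn2, Fbln1 and Ltbp2, and the young adult fall at Fbln1 and Ltbp2, passed under all 21 alternatives for both peak number and covered length, and no member changed direction where it passed. The settings with scaled values alone or unscaled values alone could not fail for a gene already called, since the call rule needs both. With equal numbers of the widest peaks, 3 members in place of 6 were lower in peak number at either adult age. Of all tested genes 4.21% in young and 7.77% in mature adults were lower at this setting. With unscaled values alone 8 in place of 5 were lower in covered length in young adults. There 39.1% of all tested genes were lower, in place of 12.5%. In mature against young adults, 1 member in place of 0 was lower with peaks of at least 300 bp (either measure, Ltbp2). Of all tested genes 0.649% were lower there in peak number and 0.618% in covered length. Without young adult 3 and mature adult 1, 1 member in place of 0 was lower (peak number, Fbln1), beside 2.17% of tested genes. Leaving out 1 library gave 0 to 1 (Fbln1 without young adult 3, beside 2.05% of tested genes). Bgn turned to a scaled log2 change of 0.0083 with peaks of at least 300 bp (limma adjusted p = 0.932). Infant-only regions at the members numbered 16 of 112 with equal numbers of the widest peaks and 26 of 112 with peaks of at least 300 bp, in place of 40 of 163. Their shares over all genes were not counted at these settings. The infant minus mature adult difference in median peak width, -1.67 bp, was 53.5 bp with rows as deposited, 46.0 bp with peaks of at least 300 bp and 191.7 bp with the widest peaks, settings chosen after seeing the data; leaving out 1 library gave -22.7 to 12.3 bp. The cut to the widest peaks removed the narrowest peaks of the longer infant lists and left the list of mature adult 1 whole. By construction it could therefore not lower the infant median widths. The cause of the other changes was not tested, beyond the fewer peaks that the stricter settings leave.

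Over all genes, peak number gave 1503 calls in young against infant, 2207 in mature against infant and 107 in mature against young libraries. With scaled values alone the first 2 were 5058 (3707 higher and 1351 lower) and 6341 (4342 and 1999), with unscaled values alone 2690 (164 and 2526) and 4451 (209 and 4242), against 164 higher and 1339 lower, and 209 and 1998, under the call rule. They were 902 and 1434 with peaks inside genes only, and 951 in young adults with a mean of at least 2 peaks. The third was 69 with rows as deposited, 39 with a mean of at least 2 peaks, 427 without young adult 3 and mature adult 1, and 88 to 361 when 1 library was left out (361 without young adult 3, 179 without mature adult 2). Covered length gave 1938, 2919 and 78 calls. These were 5574, 7670 and 133 with scaled values alone, 5783 and 8254 with unscaled values alone, and 1103 and 1844 with peaks inside genes only. In mature against young adults they were 34 with the widest peaks, 19 with rows as deposited, 119 with all genes with at least 1 peak, and 568 without young adult 3 and mature adult 1. Without young adult 3 and mature adult 1 there were 2242 calls in young against infant. Leaving out 1 library gave 1206 to 2148 calls in young against infant (1206 without infant 1, 1247 without infant 2) and 9 to 548 in mature against young adults (548 without young adult 3).

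With the replicate number as a block, mature against young adults gave 55 calls for peak number and 24 for covered length. Among members the block removed the young adult call of Fbln2 in peak number (limma adjusted p = 0.0763) and added the mature adult call of Eln in covered length (limma adjusted p = 0.0147). Same-numbered libraries correlated between -0.167 and 0.167 in their deviations, and 3 of 9 correlated best with their own number in both other ages, so the numbers were not taken to pair samples. Depth is unknown, so a peak missed at low depth cannot be told apart from a closed site.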
